A study of Mus musculus with 5 samples.

Results

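The nuclei described here are myonuclei of 2 single-nucleus libraries from mouse hindlimb muscle, Cacna1s KO fetuses at E18.5 and WT embryos at E14.5. The comparison asks which genes of a paralysed, older muscle had moved away from the embryonic level and which had not. WT E18.5 myonuclei, the same age as the KO, are given as the reference for what 4 days of normal development bring. A nucleus was counted as a myonucleus when the muscle genes Ttn, Neb, Trdn and Ryr1 together made up 1.5% or more of its unique molecular identifiers (UMIs, single captured RNA molecules). This left 981 KO and 1809 WT E14.5 myonuclei, 2790 of the 21156 nuclei that passed the filter in all 5 libraries of the series, and 1563 myonuclei in the WT E18.5 library. The 4 genes of the rule are not results. The limit cut through a continuous range, with 125 KO and 338 WT E14.5 nuclei between 1.5% and 2%, against 112 KO and 190 WT E14.5 nuclei between 1% and 1.5% (110 and 93 in WT E18.5).

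Each library came from hindlimb skeletal muscle of C57bl6n mice and was 1 pool of limbs: 26 limbs for the Cacna1s-/- fetuses at E18.5, 56 for WT at E14.5 and 14 for WT at E18.5. The KO allele, Cacna1s tm1.1(KOMP)Vlcg, carries an inserted cassette that removes coding sequence, and it is constitutive, so Cacna1s was absent from every tissue from conception and the fetuses could not move. The sort used PCM1, a protein of the myonuclear surface, and equal volumes of stained and unstained nuclei were pooled again before loading, so the share of myonuclei was set by the sort. RNA and open chromatin (ATAC) were read from the same nuclei. With 1 library per group there was no replicate check and no p-value. Genotype, age and pool cannot be told apart within the KO against WT E14.5 comparison, and the 95% intervals given cover the error of counting alone.

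The product of Cacna1s is the pore of Cav1.1, the skeletal muscle L-type channel, which sits in the transverse tubule, senses the action potential and opens the ryanodine receptor of the sarcoplasmic reticulum so that calcium is released and the fiber contracts. Muscle fibers form in successive waves, with primary fibers in the embryo and secondary fibers in the fetus, and they exchange embryonic isoforms of contractile proteins first for neonatal and later for adult ones. Nerve activity and the calcium signals that follow it are known to repress genes of immature and denervated fibers and to raise genes of mature ones.

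The KO myonuclei gave 10941142 UMIs, WT E14.5 myonuclei 9740077 and WT E18.5 myonuclei 12518957, with a median of 10200, 4870 and 6971 UMIs per nucleus. Levels are therefore given as CPM, the UMIs of a gene scaled to a common total of all UMIs summed over the myonuclei of a library, and they compare 1 gene between libraries, not 1 gene with another. In such sums, fewer nuclei with a transcript and less transcript per nucleus cannot be told apart. All 12 muscle markers that the rule did not use were detected in each library, and their summed level was 11359 CPM in KO myonuclei, 6967 CPM in WT E14.5 myonuclei and 15132 CPM in WT E18.5 myonuclei, against 769, 722 and 733.5 CPM in the other nuclei. RNA of other cell types was also present and was higher in the KO than in WT E14.5 for several of them: all 5 counted macrophage markers, all 7 endothelial markers, all 4 counted markers of cycling cells and both counted adipocyte markers were at least 2-fold higher, with summed levels in KO, WT E14.5 and WT E18.5 myonuclei of 107, 12.4 and 81.6 CPM, of 95.6, 22.2 and 63.1 CPM, of 119, 26.4 and 78.2 CPM and of 56.7, 2.98 and 12.8 CPM. Of 9 mesenchymal markers, 6 were higher and 1 lower, with sums of 722, 485 and 1823 CPM. The KO and WT E14.5 libraries shared 17 barcodes, 1 of them among myonuclei. Doublets were not removed.

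The targeted transcript was nearly absent from the KO. Cacna1s had 8 UMIs in KO myonuclei, 2058 in WT E14.5 myonuclei and 2371 in WT E18.5 myonuclei, or 0.731 CPM (interval 0.316 to 1.44), 211 CPM (202 to 221) and 189 CPM (182 to 197). It was 289-fold lower in the KO than in WT E14.5 (146 to 670) and 259-fold lower than in WT E18.5 (131 to 601). Its start site was still open: peaks within 1000 bases, called in each library alone, held 62.1 CPM of the ATAC counts over 1634 bases in the KO, 114 CPM over 2430 bases in WT E14.5 and 62.3 CPM over 1601 bases in WT E18.5, so the KO was close to WT E18.5 of the same age.

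Most of what separated WT E18.5 from WT E14.5 myonuclei was also seen, in full or in part, in the KO. Of 12920 genes with at least 50 UMIs in the KO and WT E14.5 sums together, 1754 (13.6%) were at least 2-fold higher in KO myonuclei and 1039 (8.04%) at least 2-fold lower. WT E18.5 against the same WT E14.5 library gave 1859 higher (14.4%) and 1213 lower (9.39%), and the KO against WT E18.5 gave 691 higher (5.35%) and 464 lower (3.59%). At the stricter limit of 4-fold the shares were 4.61% higher and 2.5% lower for the KO over WT E14.5, 4.13% and 3.1% for WT E18.5 over WT E14.5, and 0.929% and 0.395% for the KO over WT E18.5. These 3 comparisons share libraries, so their counts are not independent. All 3 used the same 12920 genes, chosen without the WT E18.5 sum. Genes high only in WT E18.5, such as Dqx1 and Pvalb, were therefore left out. This lowers the counts of genes higher in WT E18.5 than in the KO or WT E14.5. The median gene was 0.11 higher on the log2 scale in the KO than in WT E14.5, 0.14 higher in WT E18.5 than in WT E14.5 and 0.02 lower in the KO than in WT E18.5 (log2 -0.02), and the list medians below are to be read against these shifts.

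To sort genes by outcome, 10371 genes with at least 200 UMIs in the 3 libraries together were taken, and those that differed at least 4-fold between WT E18.5 and WT E14.5 were placed by their KO level. Of 387 genes that were higher in WT E18.5, 169 were within 1.5-fold of WT E18.5 in the KO and are called reached, 13 were within 1.5-fold of WT E14.5 and are called stayed low, 159 lay between the 2 ages, 45 were more than 1.5-fold above WT E18.5 and 1, Myl2, lay more than 1.5-fold below WT E14.5. Of 236 genes that were lower in WT E18.5, 98 were within 1.5-fold of WT E18.5 in the KO and are called shut off, 11 stayed on at the WT E14.5 level, 99 lay between, 27 were further below WT E18.5 and 1 was above WT E14.5. The classes rest on chosen fold limits and 1 library per group, and describe these pools. Genes named for a class also had to be higher in the myonuclei than in the other nuclei of the library where they were high, a condition met by 96 of the reached genes, 6 of the genes that stayed low, 65 of those shut off and 6 of those that stayed on.

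**Figure D1:**
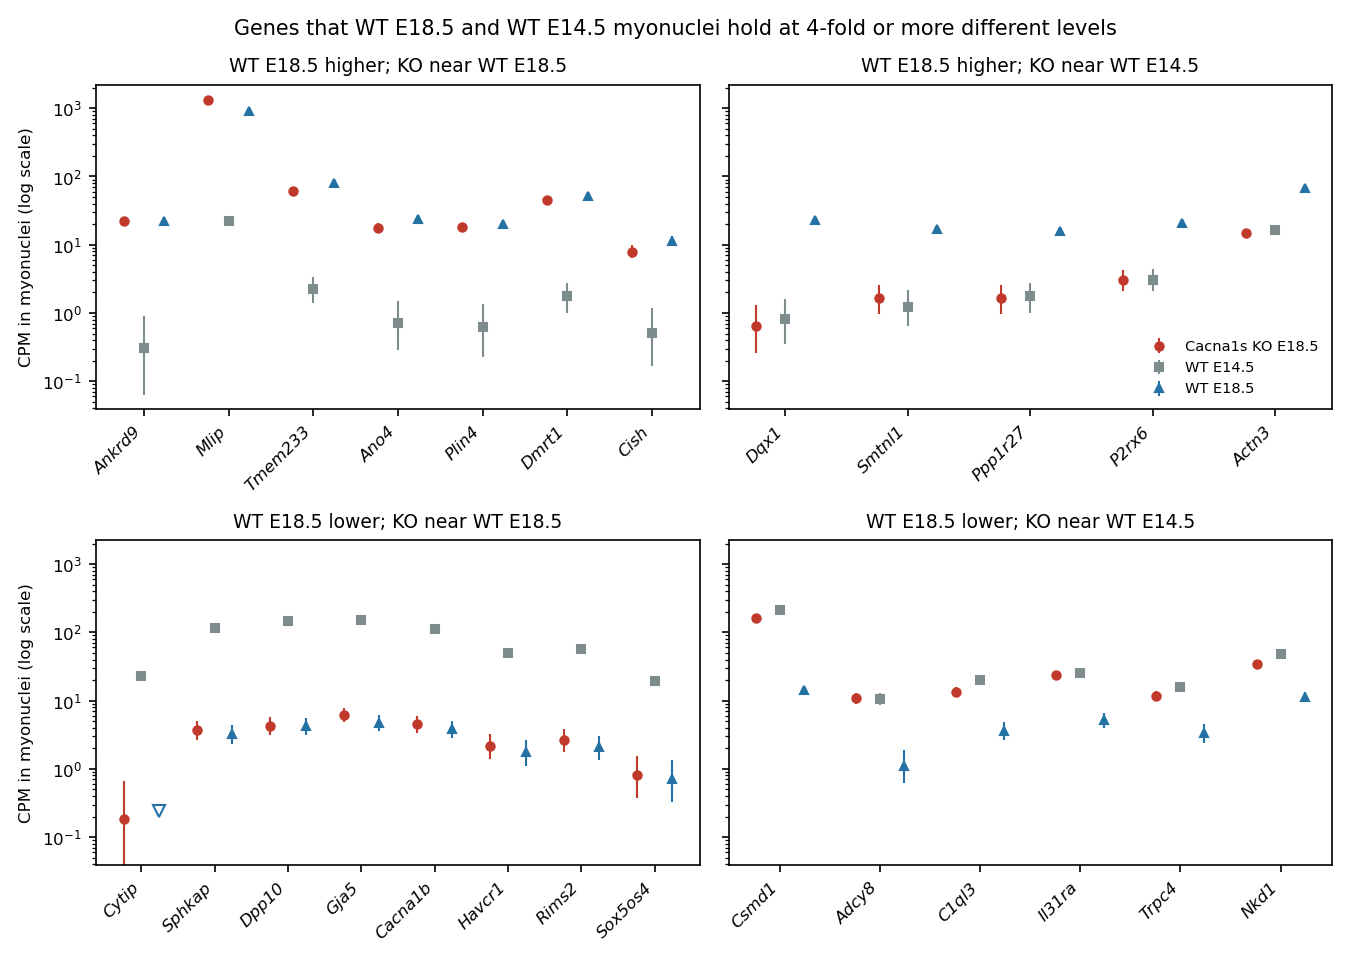
Level of example genes of 4 classes in Cacna1s KO E18.5 (circles), WT E14.5 (squares) and WT E18.5 (triangles) myonuclei, in CPM on a log axis, with 95% counting intervals; the open triangle marks a sum of 0. In the left panels the KO lies beside WT E18.5, as for Mlip with 1329 CPM in the KO and 22.2 CPM in WT E14.5, and in the right panels it lies beside WT E14.5, as for Actn3 with 14.7 and 16.6 CPM.

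Mlip, which encodes a lamin-interacting protein of striated muscle, was among the genes that reached the WT E18.5 level. It had 1329 CPM in KO myonuclei, 22.2 CPM in WT E14.5 myonuclei and 910.5 CPM in WT E18.5 myonuclei, 59.9-fold higher in the KO than in WT E14.5 (52.4 to 68.9). When every nucleus was thinned to 2000 UMIs, 57.4% of KO myonuclei carried a Mlip UMI, against 3.27% in WT E14.5 and 49.7% in WT E18.5 (66.9%, 5.47% and 58% without thinning). In the other nuclei, which had a median of 6909, 3665 and 5474 UMIs, the thinned shares were 3.82%, 0.852% and 1.59%, so the KO share in myonuclei stood well above that background. Plin4, a protein of lipid droplet surfaces, had 17.9 CPM in the KO, 0.616 CPM in WT E14.5 and 20.1 CPM in WT E18.5, and Cish, an inhibitor of cytokine signalling, had 7.95, 0.513 and 11.3 CPM in the same order.

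Further examples, taken like Mlip, Plin4 and Cish from the members with the widest ratio between the WT ages, were Ankrd9 with 22.2 CPM in the KO, 0.308 CPM in WT E14.5 and 22.5 CPM in WT E18.5, Tmem233 with 61.1, 2.26 and 79.7 CPM, Ano4, of the anoctamin family of membrane proteins, with 17.8, 0.719 and 23.8 CPM, and Dmrt1, known as a transcription factor of the testis, with 44.8, 1.75 and 51.6 CPM. Every one of these 7 genes was at least 15-fold higher in the KO than in WT E14.5, the lowest being Cish at 15.5-fold (6.39 to 48.9). The WT E14.5 sums behind them were small, from 3 UMIs for Ankrd9 to 216 for Mlip, and the interval of the Ankrd9 ratio of 72.1 ran from 24.4 to 352.

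A further group of genes that are high in WT E18.5 was higher still in the KO, and it included a regulator of lipid use. Ppara, the nuclear receptor that drives fatty acid oxidation genes, had 139 CPM in KO myonuclei, 3.49 CPM in WT E14.5 myonuclei and 78 CPM in WT E18.5 myonuclei, a ratio of 39.7 to WT E14.5 (28.3 to 57.6) and of 1.78 to WT E18.5 (1.64 to 1.93). The share of nuclei with a Ppara UMI after thinning was 21.6% in the KO, 0.819% in WT E14.5 and 13.3% in WT E18.5 (46.3%, 1.71% and 32.8% without thinning), against 4.59%, 0.963% and 2.52% in the other nuclei. Mettl21e, a protein methyltransferase of muscle, had 976 UMIs in the KO, 1 in WT E14.5 and 360 in WT E18.5, or 89.2, 0.103 and 28.8 CPM. The metallothionein Mt1 had 16.1, 0.103 and 4.15 CPM, its WT E14.5 value resting on 1 UMI. Padi2, an enzyme that converts arginine in proteins to citrulline, had 76.2, 2.16 and 27.5 CPM.

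The genes that stayed low were few and included a structural gene of fast fibers. Actn3, the alpha-actinin of the fast Z disc, had 14.7 CPM in KO myonuclei (12.5 to 17.2), 16.6 CPM in WT E14.5 myonuclei (14.2 to 19.4) and 68.6 CPM in WT E18.5 myonuclei (64.1 to 73.4), so the KO lay 1.13-fold below WT E14.5 (0.903 to 1.41) and 4.66-fold below WT E18.5 (3.94 to 5.55). Smtnl1, a smoothelin-like muscle protein, had 1.65, 1.23 and 16.9 CPM. P2rx6, a subunit of ATP-gated channels, had 3.02, 3.08 and 21.1 CPM, and Ppp1r27, a protein phosphatase 1 regulator, 1.65, 1.75 and 15.7 CPM. Dqx1, a helicase-like gene, had 7 UMIs in the KO, 8 in WT E14.5 and 288 in WT E18.5.

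Among genes that lay between the ages, the shortfall against WT E18.5 was largest for Xirp2, which encodes a protein of the Z disc and intercalated disc. Xirp2 had 33.3 CPM in KO myonuclei, 1.23 CPM in WT E14.5 myonuclei and 264 CPM in WT E18.5 myonuclei, 27-fold above WT E14.5 (15.3 to 52.7) and 7.94-fold below WT E18.5 (7.12 to 8.87). The fast myosin-binding protein Mybpc2 had 7.4, 0.205 and 34.8 CPM, with 2 UMIs in WT E14.5. Mlf1 had 80.9, 2.87 and 204 CPM, Ndrg2 had 12.2, 0.205 and 46 CPM, and Mlxipl, a glucose-responsive transcription factor, had 5.85, 0.205 and 20.8 CPM. Myl2, the slow and cardiac regulatory light chain, was below both WT libraries, with 8 UMIs in the KO, 34 in WT E14.5 and 435 in WT E18.5.

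The genes shut off in the KO included Gja5 and also several that are best known from neurons, such as Cacna1b and Rims2. Gja5, the gap junction protein connexin 40, had 6.22 CPM in KO myonuclei (4.83 to 7.88), 151 CPM in WT E14.5 myonuclei (144 to 159) and 4.71 CPM in WT E18.5 myonuclei (3.59 to 6.08), 24.4-fold lower in the KO than in WT E14.5 (19.1 to 31.5). After thinning, 0.832% of KO myonuclei held a Gja5 UMI, against 23.9% in WT E14.5 and 0.716% in WT E18.5 (3.26%, 40.3% and 2.05% without thinning), and the KO share was near that of the other KO nuclei, 0.727%, and is read as background. Sphkap, which anchors protein kinase A, had 3.66, 114 and 3.2 CPM, Cacna1b, the pore of N-type calcium channels, 4.57, 113 and 3.83 CPM, and Dpp10, which modulates potassium channels, 4.3, 147 and 4.23 CPM. Rims2, of the presynaptic release zone, had 2.65, 57.8 and 2.08 CPM. Cytip had 2 UMIs in the KO, 227 in WT E14.5 and 0 in WT E18.5.

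Other embryonic genes were nearly silent in the KO yet not as low as in WT E18.5. Ptprt, a receptor-type tyrosine phosphatase, had 30.8 CPM in KO myonuclei, 830.4 CPM in WT E14.5 myonuclei and 10.6 CPM in WT E18.5 myonuclei, 27-fold lower in the KO than in WT E14.5 (24.2 to 30.2) and 2.9-fold higher than in WT E18.5 (2.37 to 3.57). Dner, a Notch-related membrane protein, had 27.3, 278 and 7.75 CPM, Ostn, the secreted peptide musclin or osteocrin, 9.51, 80.9 and 2.8 CPM, and Dscaml1, a cell adhesion molecule, 2.92, 154 and 0.559 CPM. A smaller set lay below both ages: Kcnk2, a potassium leak channel that responds to stretch, had 3.75 CPM in the KO, 171 CPM in WT E14.5 and 15.8 CPM in WT E18.5, and Fgf14, an intracellular regulator of sodium channels, 149, 1416 and 235 CPM. Ptpn20 had no UMI in the KO, 215 in WT E14.5 and 11 in WT E18.5.

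Csmd1, a large complement-related membrane protein of the nervous system, was 1 of the 11 genes that stayed on. It had 160 CPM in KO myonuclei (153 to 168), 215 CPM in WT E14.5 myonuclei (206 to 224) and 14.1 CPM in WT E18.5 myonuclei (12.1 to 16.4), so the KO was 1.34-fold below WT E14.5 (1.26 to 1.43) and 11.3-fold above WT E18.5 (9.69 to 13.3). In the other nuclei it had 106, 107 and 53.5 CPM. In nuclei with mostly embryonic myosin (Myh3-dominant, a split chosen after seeing the data) Csmd1 was lower in the KO than in WT E14.5, with 32.5 and 101 CPM, 3.11-fold (2.43 to 4.02), and in nuclei with mostly neonatal myosin (Myh8-dominant) it had 180 and 205 CPM. Adcy8, a calcium-stimulated adenylyl cyclase, had 10.9, 10.5 and 1.12 CPM, Trpc4, a calcium-permeable cation channel, 11.7, 15.7 and 3.35 CPM, and Nkd1, an inhibitor of Wnt signalling, 34.8, 47.7 and 11.3 CPM. Il31ra, a cytokine receptor chain, had 24, 25.3 and 5.11 CPM, with 28.4, 24.1 and 6.98 CPM in the other nuclei. C1ql3 had 13.4, 20.1 and 3.59 CPM.

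A few genes lay at least 4-fold outside both WT libraries, 13 above and 9 below, of which 4 and 6 were higher in myonuclei than in other nuclei. Dio2, the deiodinase that makes active thyroid hormone, had 17.7 CPM in KO myonuclei, 0.719 CPM in WT E14.5 myonuclei and 1.44 CPM in WT E18.5 myonuclei, 24.7-fold above WT E14.5 (11.7 to 62.2) and 12.3-fold above WT E18.5 (7.6 to 21.2). Nell2, a secreted glycoprotein, had 45.6, 5.24 and 5.27 CPM, Asb14, a subunit type of ubiquitin ligases, 20.9, 4.11 and 4.39 CPM, and Ankfn1, 321, 74.8 and 79.5 CPM. Below both, beside Cacna1s, Myl2 and Kcnk2, were Cfap54, a protein of cilia, with 3.47, 52.3 and 25.6 CPM, the ganglioside enzyme St8sia1 with 0.823, 24.3 and 4.39 CPM, and Ranbp3l with 1.01, 15.7 and 4.39 CPM.

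Lists of functionally related genes, and a few named in the study, were then read against the background of 13.6% of genes higher and 8.04% lower. Of the 5 mature fast genes, 4 were at least 2-fold higher in the KO than in WT E14.5 and none lower, with a median log2 ratio of 3.11, against 5 of 5 and 3.77 for WT E18.5 over WT E14.5. Ckm, the muscle creatine kinase, had 189, 21.8 and 359 CPM in KO, WT E14.5 and WT E18.5 myonuclei, Atp2a1, the fast calcium pump, 521, 159 and 936 CPM, and Myh4, the adult fast myosin IIB, 6.22, 0.719 and 9.83 CPM. Actn3 was the exception. The median of 3.11 was 1.65 when nuclei were thinned to 2000 UMIs, over the 3 genes that still had enough UMIs to be counted. Of the 10 developmental genes, 2 were higher and 3 lower in the KO, with a median of 0.21, and 1 higher and 3 lower in WT E18.5, with a median of -0.64. Both lists were named by the study with these samples in view, so they are not independent evidence of a direction.

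**Figure D2:**
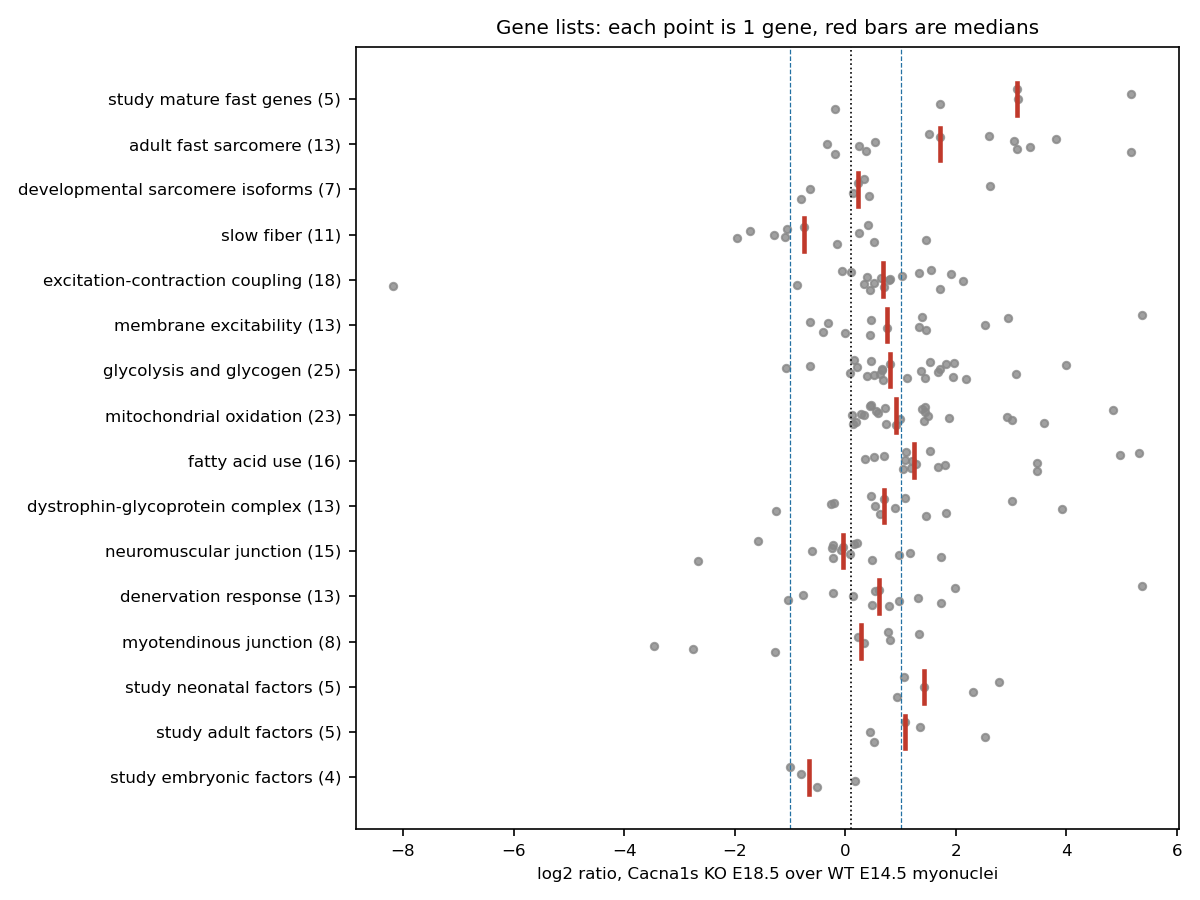
Log2 ratio of Cacna1s KO E18.5 over WT E14.5 myonuclei for each counted gene of the lists (points, 1 gene each) with the list median (red bar). The mature fast genes have a median of 3.11 and the fatty acid genes one of 1.25, while the developmental sarcomere isoforms have a median of 0.24.

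Within the developmental list the members went apart, with Col25a1 and Myh8 higher and Myh7, Fstl4 and Tmem108 lower. Col25a1, a membrane collagen that motor axons need to enter muscle, was highest in the KO, with 2740 CPM against 1217 CPM in WT E14.5 and 532 CPM in WT E18.5, and the fetal acetylcholine receptor subunit Chrng had 141, 72 and 84.5 CPM. The fusion genes Mymx and Mymk had 14.4, 8.62 and 5.35 CPM and 63.8, 60.6 and 40.4 CPM. Fstl4 and Tmem108 had 29.3, 266 and 9.27 CPM and 128, 1019 and 96.3 CPM. The embryonic troponin T gene Tnnt2 differed little from WT E14.5, with 263, 207 and 168 CPM.

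Neonatal myosin had overtaken embryonic myosin as a share of UMIs without the channel, as in WT E18.5. Myh3, the embryonic heavy chain, made up 23.0% of myosin heavy chain UMIs in KO myonuclei (22.6 to 23.4), 62.4% in WT E14.5 (61.7 to 63.0) and 22.1% in WT E18.5, and Myh8, the neonatal heavy chain, made up 73.0% (72.6 to 73.4), 20.7% (20.2 to 21.3) and 72.3%. In levels, Myh8 had 2855 CPM in the KO, 464 CPM in WT E14.5 and 3261 CPM in WT E18.5. Myh3 differed less than 2-fold, with 9833 UMIs in the KO, 13623 in WT E14.5 and 12480 in WT E18.5. Its ratio to WT E14.5 was 0.898 in Myh3-dominant and 0.888 in Myh8-dominant KO nuclei. The change of shares thus rested mostly on the higher Myh8. Of the nuclei with at least 5 myosin UMIs, 672 of 933 in the KO (72.0%) took more than 50% of them from Myh8, against 143 of 1537 in WT E14.5 (9.30%) and 1029 of 1496 in WT E18.5 (68.8%). The slow chain Myh7 was lower in the KO than in either WT library, with 50.5, 196 and 114 CPM, and was 1.29% of myosin UMIs against 8.75% and 2.53%. The slow fiber list went the same way, with 5 of 11 counted genes lower and 1 higher in the KO than in WT E14.5. Tnnc1 and Tnni1, slow troponins C and I, had 107, 353 and 150 CPM and 189.7, 395 and 253 CPM, while Mybpc1 was higher, with 4865, 1757 and 5524 CPM.

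In the sums, the fast contractile genes had moved towards the WT E18.5 level without reaching it in most cases. Of 13 counted genes of the adult fast sarcomere, 8 were at least 2-fold higher in the KO than in WT E14.5 and none lower. The median log2 ratio was 1.72, against 10 of 13 and 2.04 for WT E18.5 over WT E14.5. In Myh3-dominant nuclei, a split chosen after seeing the data, 1 of 8 counted was higher and 1 lower. Their median was 0.26, against 0.30 for WT E18.5 over WT E14.5. In Myh8-dominant nuclei 7 of 13 were higher and none lower, with medians of 1.24 and 1.91. Myoz1, a Z disc protein of fast fibers, had 104, 12.5 and 173 CPM, and Tmod4, a tropomodulin that caps thin filaments, 18.6, 1.33 and 28.9 CPM. Fast troponin I made up 49.7% of the UMIs of Tnni2 and Tnni1 in the KO (48.2 to 51.2), 7.27% in WT E14.5 (6.50 to 8.10) and 48.4% in WT E18.5 (47.2 to 49.7). For fast troponin C (Tnnc2 against Tnnc1) the shares were 68.8%, 16.8% and 57.1%, so the KO was above WT E18.5. Other pairs stopped short: Atp2a1 made up 57.4%, 27.0% and 69.3% of calcium pump UMIs (Atp2a1 and Atp2a2), Tnnt3 66.6%, 46.8% and 81.0% of the UMIs of Tnnt3 and Tnnt2, and Acta1, skeletal actin, 51.6%, 39.4% and 61.7% of those of Acta1 and Actc1. Actn3 was 1.45%, 1.22% and 4.49% of the UMIs of Actn3 and Actn2. Transcripts of a pair differ in length, so a share is compared between libraries and says nothing of the ratio of the proteins.

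**Figure D3:**
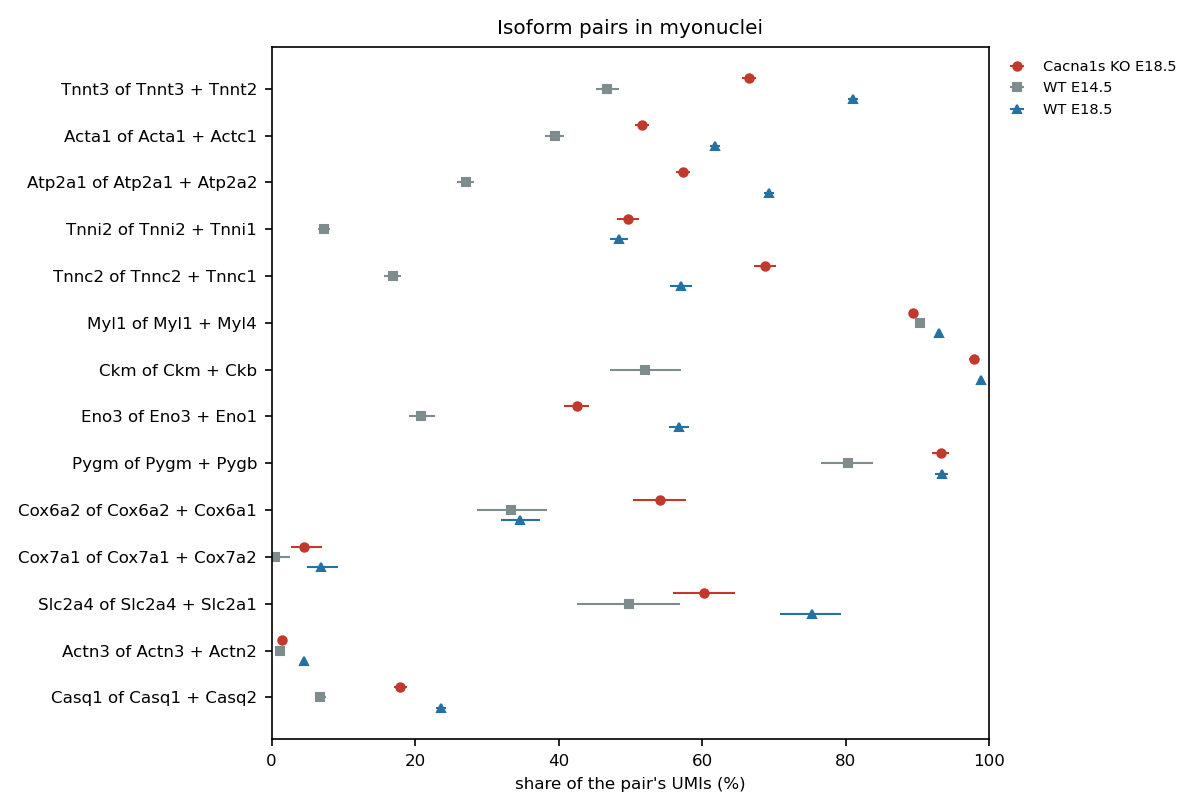
Share of the adult or muscle form in the UMIs of 14 isoform pairs (%), in Cacna1s KO E18.5 (circles), WT E14.5 (squares) and WT E18.5 (triangles) myonuclei, with exact binomial 95% intervals. The KO lies beside WT E18.5 for Tnni2 (49.7% and 48.4%, with 7.27% in WT E14.5) and beside WT E14.5 for Actn3 (1.45% and 1.22%, with 4.49% in WT E18.5).

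In the calcium release machinery itself, 6 of 18 counted genes were at least 2-fold higher in the KO than in WT E14.5 and 1, Cacna1s, was lower. The other subunits of the channel complex were present: Cacna2d1, the alpha2delta subunit, had 2913, 5320 and 3065 CPM in KO, WT E14.5 and WT E18.5 myonuclei, Cacnb1, the beta subunit, 74, 58.2 and 75.9 CPM, Cacng1, the gamma subunit, 178, 125 and 228 CPM, and Stac3, the adaptor that Cav1.1 needs to work, 52.7, 54.7 and 69.3 CPM. Casq1, the calcium buffer of the sarcoplasmic reticulum in fast fibers, had 125, 28.6 and 266 CPM and lay 2.14-fold below WT E18.5 (2.01 to 2.28). Ryr3, a further ryanodine receptor known from immature muscle, had 2708, 721 and 2015 CPM. Pvalb, the cytosolic calcium buffer parvalbumin, had 2 UMIs in the KO, 0 in WT E14.5 and 104 in WT E18.5. Of 13 counted genes of membrane excitability, 6 were higher and none lower, among them Scn4a, the adult muscle sodium channel, with 44.6, 16.9 and 40.8 CPM, and the potassium channel Kcnj12 with 31.4, 5.44 and 28.5 CPM.

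At the neuromuscular junction no common direction was seen, with 2 of 15 counted genes higher and 2 lower in the KO than in WT E14.5. Chrnd, the delta subunit of the acetylcholine receptor, had 56.5 CPM in KO myonuclei, 17 CPM in WT E14.5 myonuclei and 28.6 CPM in WT E18.5 myonuclei, a ratio of 3.31 to WT E14.5 (2.79 to 3.96). Musk, the kinase that organises the postsynaptic membrane, had 319.9, 373 and 138 CPM, in the sums 1.17-fold below WT E14.5 (1.11 to 1.22). Within each myosin class Musk was further below WT E14.5. It was 2.32-fold lower (2.04 to 2.64) in Myh3-dominant nuclei and 1.86-fold lower (1.69 to 2.05) in Myh8-dominant ones. Ache, which encodes acetylcholinesterase, was lower than in both WT libraries with 9.14, 58.1 and 21.1 CPM, 6.36-fold below WT E14.5 (5.13 to 7.95). Ufsp1, known from synaptic myonuclei, had 8.59, 25.7 and 27.6 CPM. Of 8 genes of the myotendinous junction, 1 was higher and 3 were lower. Col22a1, the collagen of that junction, had 64.3, 705 and 168 CPM, 11-fold below WT E14.5 (10.2 to 11.9). It was 5.48-fold lower (4.93 to 6.11) in Myh3-dominant nuclei and had a ratio of 0.869 (0.603 to 1.29) in Myh8-dominant ones. The stretch-responsive gene Ankrd1 had 11.7, 79.1 and 43.9 CPM. Nos1, neuronal nitric oxide synthase held at the membrane by the dystrophin complex, had 37.2, 2.46 and 49.8 CPM. Dmd itself had 17166, 11136 and 14497 CPM.

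Genes of denervated and wasting muscle were partly higher in the KO. Of 13 genes of the denervation response, 4 were at least 2-fold higher in the KO than in WT E14.5 and 1 lower, against 1 higher and 2 lower for WT E18.5 over WT E14.5. Runx1, a transcription factor that rises after denervation, had 144 CPM in KO myonuclei, 36.2 CPM in WT E14.5 myonuclei and 60.4 CPM in WT E18.5 myonuclei, a ratio of 3.97 to WT E14.5 (3.54 to 4.47) and 2.38 to WT E18.5 (2.18 to 2.6). Of 12 atrophy and autophagy genes 3 were higher and none lower. Fbxo32, the muscle ubiquitin ligase atrogin-1, had 50.7, 17.4 and 10.3 CPM, while Trim63, the ubiquitin ligase MuRF1, had 69.2, 39.7 and 64.5 CPM. Bnip3, a protein of mitochondrial autophagy, had 47.1, 13.1 and 14.8 CPM in myonuclei and 72.7, 11.5 and 18.8 CPM in the other nuclei, and the part of the other nuclei's RNA was not tested.

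In the sums, genes of energy metabolism were more often higher in the KO than genes at large (13.6%), as they were in WT E18.5. Of 25 counted genes of glycolysis and glycogen, 12 were higher and 1 lower, with a median log2 ratio of 0.81. Of 23 mitochondrial genes 10 were higher and none lower, with a median of 0.93. WT E18.5 over WT E14.5 gave 14 of 25 and 15 of 23 higher, with medians of 1.14 and 1.20. In Myh3-dominant nuclei 4 of 25 and 2 of 20 were higher in the KO, and in Myh8-dominant nuclei 13 of 25 and 13 of 23. Hk2, the muscle hexokinase, had 125, 14.7 and 119 CPM in KO, WT E14.5 and WT E18.5 myonuclei, Phkg1, the catalytic subunit of phosphorylase kinase, 71.9, 4.52 and 109.8 CPM, and Pygm, muscle glycogen phosphorylase, 155, 39.8 and 231 CPM. The mitochondrial creatine kinase Ckmt2 had 62.4, 5.13 and 164 CPM and lay 2.62-fold below WT E18.5 (2.4 to 2.86). Ckm made up 97.9%, 52.1% and 98.8% of the UMIs of Ckm and Ckb, the brain form. Esrrg, an orphan nuclear receptor of oxidative genes, had 162, 21.1 and 177 CPM.

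Of 16 fatty acid genes, 13 were at least 2-fold higher in the KO than in WT E14.5 and none lower, with a median log2 ratio of 1.25, against 9 of 16 and 1.13 for WT E18.5 over WT E14.5. In Myh3-dominant nuclei alone 3 of 13 counted were higher and the median was 0.39, and in Myh8-dominant nuclei 9 of 16 and 1.09. Lpl, lipoprotein lipase, had 141 CPM in KO myonuclei, 4.52 CPM in WT E14.5 myonuclei and 55.4 CPM in WT E18.5 myonuclei, a ratio of 31.2 to WT E14.5 (23.1 to 43.1). Cd36, the fatty acid transporter, had 841, 347 and 243 CPM, and Cpt1b, the muscle carnitine palmitoyltransferase, 23.8, 2.16 and 36.4 CPM. Pdk4, the kinase that turns off pyruvate dehydrogenase when fat is burned, had 29.5, 1.03 and 7.67 CPM, 28.8-fold above WT E14.5 (15.4 to 60.5). Adipocyte markers moved with this list, summing to 447 CPM in the other KO nuclei and to 22.1 CPM in the other WT E14.5 nuclei, and in KO myonuclei 1 of the 5 markers was at 0, against 4 of the 5 in WT E14.5. Lpl had 150 CPM and Acsl1, an acyl-CoA synthetase, 416 CPM in the other KO nuclei, against 141 and 153 CPM in KO myonuclei. With every myonucleus that held an adipocyte marker UMI left out, an alternative chosen after seeing the data, the log2 ratio of Lpl was 4.90 in place of 4.96 and the list median 1.23.

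Among transcription factors, those that the study places in the neonatal and adult phases were mostly higher in the KO than in WT E14.5. Of 5 neonatal factors 4 were at least 2-fold higher, with a median log2 ratio of 1.43, against 5 of 5 and 2.44 for WT E18.5 over WT E14.5, and of 5 adult factors 3 were higher, with a median of 1.09. These lists too were drawn up with these samples in view. Nfix, a nuclear factor I protein of fetal muscle, had 90.8, 13.1 and 108 CPM in KO, WT E14.5 and WT E18.5 myonuclei, Nfib 1051, 212 and 1177 CPM, and Maf, a basic leucine zipper factor of mature fast fibers, 52.4, 9.03 and 85.2 CPM. All 3 were higher in the other nuclei of the KO, where Nfix had 246 CPM, Nfib 3209 CPM and Maf 160 CPM, and the part of RNA from those nuclei was not tested. Nr4a1, an activity-responsive nuclear receptor, stayed nearer to WT E14.5, with 12.9, 9.45 and 32.2 CPM. In the sums, none of the 4 embryonic factors and none of the 3 fetal factors differed 2-fold. Sox4 came closest with 28.2, 56.1 and 35.1 CPM. In Myh3-dominant nuclei, a split chosen after seeing the data, all 3 fetal factors were at least 2-fold higher than in WT E14.5. The ratios were 2.42 for Myog (1.99 to 2.95), 2.57 for Tead4 (2.31 to 2.85) and 2.15 for Klf5 (1.98 to 2.35). In Myh8-dominant nuclei they were 1.20, 0.653 and 1.32. Of the embryonic factors, 1 was lower in Myh3-dominant nuclei, and 1 was higher and 1 lower in Myh8-dominant ones. Of 15 general muscle factors, 1 was higher, Myf6, a myogenic regulatory factor of differentiated fibers, with 29.7, 3.39 and 26.5 CPM, and 1 lower, Prox1, with 28.2, 78.3 and 20.1 CPM.

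The same UMIs were then read nucleus by nucleus, which shows their spread over nuclei and is no separate support for the sums. After thinning to 2000 UMIs, which kept 961 KO, 1710 WT E14.5 and 1537 WT E18.5 myonuclei and left out 20, 99 and 26, the 387 genes that are high in WT E18.5 took a median of 2.4% of a nucleus's UMIs in the KO, 0.4% in WT E14.5 and 2.9% in WT E18.5. The 236 genes that are low in WT E18.5 took 1%, 4.35% and 0.45%. The WT values are a description, since these libraries chose the genes. Both sets keep genes that were not higher in myonuclei than in other nuclei. That condition was met by 96 of 169 reached and 65 of 98 shut off genes. The part of RNA from other cell types in these shares was not tested. Set against the midpoint of the WT medians, 645 of 961 KO nuclei (67.1%, 64.0 to 70.1) lay on the WT E18.5 side for the genes high in WT E18.5, against 0.877% of WT E14.5 and 70.4% of WT E18.5 nuclei. For the genes low in WT E18.5 922 of 961 KO nuclei (95.9%, 94.5 to 97.1) did so, against 6.26% and 97.3%. These intervals take the nuclei of 1 pool as units and do not cover the spread between animals or pools. For the genes high in WT E18.5 the KO nuclei, like those of WT E18.5, were spread widely, with 14.7% of KO nuclei at 0.5 to 1% of UMIs, 10.9% at 1.5 to 2% and 14.4% at 2.5 to 3%, so nuclei with a low share and nuclei with a high share stood side by side in the KO library.

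**Figure D4:**
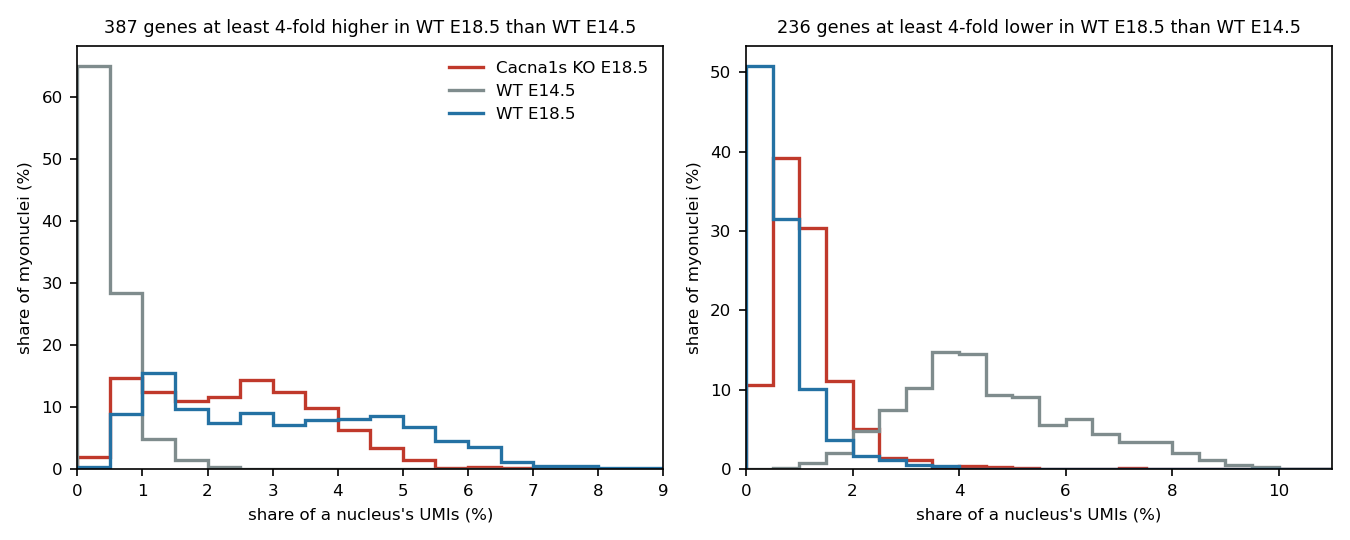
Share of each thinned myonucleus's UMIs (%) in the 387 genes at least 4-fold higher (left) and the 236 genes at least 4-fold lower (right) in WT E18.5 than in WT E14.5, as the percent of myonuclei per bin in Cacna1s KO E18.5, WT E14.5 and WT E18.5. KO medians are 2.4% and 1%, against 0.4% and 4.35% in WT E14.5.

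Nuclei with different myosins were then compared apart, a split chosen after seeing the data. Among Myh3-dominant nuclei, 179 in the KO, 1061 in WT E14.5 and 322 in WT E18.5, 750 of 10136 genes (7.4%) were at least 2-fold higher in the KO than in WT E14.5 and 969 (9.56%) lower. Among Myh8-dominant nuclei, 672, 143 and 1029, the counts were 2151 of 10277 (20.9%) and 627 (6.1%). The depths were unequal in opposite ways, 2214755 KO against 6458747 WT E14.5 UMIs in Myh3-dominant nuclei and 7608842 against 673482 in Myh8-dominant nuclei, so the counts of the classes are not comparable and nothing is read from their difference. List medians in Myh3-dominant and Myh8-dominant nuclei were 0.05 and 1.00 for glycolysis, 0.04 and 1.38 for mitochondrial genes and 0.66 and 2.88 for the neonatal factors. The embryonic genes did not all go the same way: Ptprt was lower in both classes, with log2 ratios of -3.49 and -5.81, as was Gja5 with -4.44 and -3.50, while Bicd1 was 7.86-fold lower in Myh3-dominant nuclei (6.73 to 9.25) and had a ratio of 0.969 in Myh8-dominant ones (0.597 to 1.67). Mlip was higher in both, with log2 ratios of 3.89 and 5.59. The mitochondrial coactivator Ppargc1a was lower in Myh3-dominant KO nuclei than in WT E14.5 (29.8 and 80.7 CPM) and higher in Myh8-dominant ones (229 and 52.0 CPM).

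For a few genes the sums hid a difference between the classes. Fgf14 belonged to Myh3-dominant nuclei in WT E14.5, with 11826 UMIs there and 8 in Myh8-dominant nuclei, and its level in Myh8-dominant nuclei was 115 CPM in the KO, 11.9 CPM in WT E14.5 and 200.2 CPM in WT E18.5. Sphkap had 947 UMIs in Myh3-dominant and none in Myh8-dominant WT E14.5 nuclei. Actn3 had 12 UMIs in Myh3-dominant KO nuclei and 124 in those of WT E14.5, or 5.42 and 19.2 CPM, and WT E18.5 was as low there, with 10 UMIs or 3.79 CPM. In Myh8-dominant nuclei it had 15.4 CPM in the KO, 8.91 CPM in WT E14.5, from 6 UMIs, and 93.1 CPM in WT E18.5. The KO level therefore stayed under that of WT E18.5 among nuclei that had the neonatal myosin in both libraries. The 143 Myh8-dominant WT E14.5 nuclei are few, and ratios against them carry wide intervals, from 4.90 to 22.5 around the Fgf14 ratio of 9.70.

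Open chromatin at start sites changed with the RNA for a part of the genes in both directions, over a background with more genes lower than higher in ATAC. Peaks were called in each library alone, 61874 over 54.6 megabases in the KO, 65624 over 57.2 megabases in WT E14.5 and 91265 over 79.0 megabases in WT E18.5, and the counts of all peaks within 1000 bases of a gene's start sites were summed over the myonuclei. Of 11573 genes with such peaks in both libraries, 5.18% had an ATAC level at least 1.5-fold higher in the KO than in WT E14.5 and 8.7% at least 1.5-fold lower. Among 150 genes with RNA at least 8-fold higher in the KO, 45.3% were higher and 6% lower in ATAC, and among 69 genes with RNA at least 8-fold lower, 0% and 73.9%. Among 1454 genes with RNA at least 2-fold higher the shares were 21.5% and 6.88%, and among 727 genes at least 2-fold lower 0.825% and 44.4%. Among 7395 genes with RNA within 1.5-fold the shares were 2.52% and 5.13%. Of the shut off genes with peaks in both libraries, 62.7% were lower in ATAC, and of the reached genes 35.7% were higher. The covered length was alike, with a median of 903 bases per gene in the KO and 901 in WT E14.5. Per kilobase of peak the shares for the 8-fold classes were 42.7% higher and 63.8% lower. For the reached genes 26.6% were then higher, and for the shut off genes 58.7% lower.

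**Figure D5:**
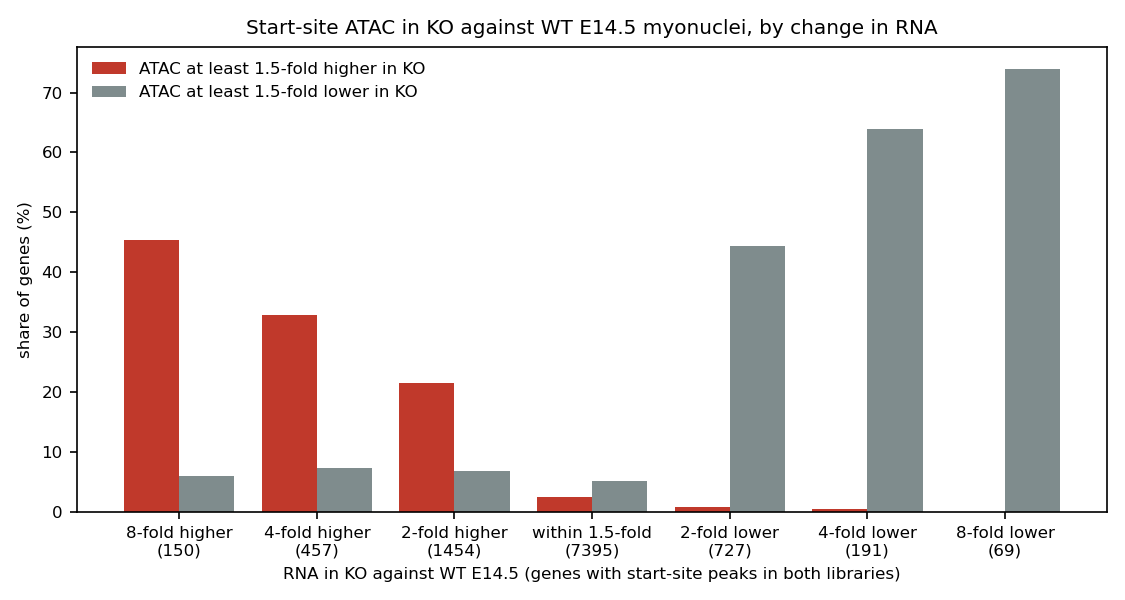
Share of genes (%) whose start-site ATAC level was at least 1.5-fold higher (red) or lower (grey) in Cacna1s KO E18.5 than in WT E14.5 myonuclei, by the change of their RNA, for genes with start-site peaks in both libraries (number in parentheses). The higher share is 45.3% where RNA was at least 8-fold higher and the lower share 73.9% where RNA was at least 8-fold lower, against 2.52% and 5.13% where RNA was within 1.5-fold.

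Promoters of 6 genes are shown as examples of these outcomes, chosen after their values were seen: Mlip and Plin4, which reached the WT E18.5 level, Pdk4, which passed it, Gja5 and Ptprt, which were shut off or nearly so, and P2rx6, which stayed low. The sequences are those of RefSeq on GRCm38.p6, 300 bases from 250 before to 50 after the start site in the direction of the gene, at chr9:77347821-77348120 on the minus strand (Mlip), chr17:56109733-56110032 on the minus strand (Plin4), chr6:5496229-5496528 on the minus strand (Pdk4), chr3:97032152-97032451 on the plus strand (Gja5), chr2:162661098-162661397 on the minus strand (Ptprt) and chr16:17561635-17561934 on the plus strand (P2rx6). Capitals mark matches on either strand to the E-box CAGCTG bound by myogenic factors, the MEF2 core (CTA and TAG set 4 bases apart), the nuclear receptor motif AGGTCA, the TEAD core CATTCC and the Maf motif TGCTGA, which are held by 16.3%, 3.69%, 16.3%, 14.7% and 19.5% of 32851 RefSeq promoters of the same length.
Mlip: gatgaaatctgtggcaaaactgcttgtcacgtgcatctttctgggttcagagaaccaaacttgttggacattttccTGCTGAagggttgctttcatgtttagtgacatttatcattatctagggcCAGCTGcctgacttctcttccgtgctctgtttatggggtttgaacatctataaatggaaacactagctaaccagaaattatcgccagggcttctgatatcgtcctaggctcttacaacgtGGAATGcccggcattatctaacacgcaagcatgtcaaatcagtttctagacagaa
Plin4: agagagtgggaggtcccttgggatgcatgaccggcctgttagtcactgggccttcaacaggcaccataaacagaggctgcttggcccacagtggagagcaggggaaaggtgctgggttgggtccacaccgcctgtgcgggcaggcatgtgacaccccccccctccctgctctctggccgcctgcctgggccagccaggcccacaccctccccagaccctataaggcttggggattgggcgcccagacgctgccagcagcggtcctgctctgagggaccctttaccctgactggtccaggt
Pdk4: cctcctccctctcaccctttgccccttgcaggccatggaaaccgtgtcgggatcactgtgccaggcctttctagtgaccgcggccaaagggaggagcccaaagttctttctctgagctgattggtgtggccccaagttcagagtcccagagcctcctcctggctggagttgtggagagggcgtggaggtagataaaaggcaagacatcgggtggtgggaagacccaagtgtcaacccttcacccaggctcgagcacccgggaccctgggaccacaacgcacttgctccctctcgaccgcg
Gja5: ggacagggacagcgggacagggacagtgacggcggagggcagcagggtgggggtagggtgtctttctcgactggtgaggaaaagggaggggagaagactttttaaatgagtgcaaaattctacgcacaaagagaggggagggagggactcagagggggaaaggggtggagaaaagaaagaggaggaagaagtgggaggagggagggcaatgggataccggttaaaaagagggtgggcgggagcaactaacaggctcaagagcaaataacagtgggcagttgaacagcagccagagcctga
Ptprt: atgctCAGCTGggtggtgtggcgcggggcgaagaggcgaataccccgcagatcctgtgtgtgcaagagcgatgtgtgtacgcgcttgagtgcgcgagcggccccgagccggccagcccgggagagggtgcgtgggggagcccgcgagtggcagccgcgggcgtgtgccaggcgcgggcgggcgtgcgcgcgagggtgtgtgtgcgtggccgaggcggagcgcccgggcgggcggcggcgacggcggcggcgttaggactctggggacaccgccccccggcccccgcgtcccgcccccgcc
P2rx6: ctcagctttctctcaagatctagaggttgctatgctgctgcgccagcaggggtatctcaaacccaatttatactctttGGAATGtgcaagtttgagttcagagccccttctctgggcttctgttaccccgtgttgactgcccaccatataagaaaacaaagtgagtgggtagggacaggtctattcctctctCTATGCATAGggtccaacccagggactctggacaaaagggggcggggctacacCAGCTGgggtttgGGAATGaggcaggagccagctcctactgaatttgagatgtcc

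The Mlip window held an E-box, a TEAD core and a Maf motif and lay outside any WT E14.5 peak, while all 300 bases were within a peak in the KO. Start-site ATAC at Mlip was 71.9 CPM in KO myonuclei over 4754 bases of peak, 7.88 CPM in WT E14.5 over 961 bases and 56.0 CPM in WT E18.5 over 6180 bases, so the covered length differed more than the level, which per kilobase was 15.1, 8.20 and 9.06 CPM. Plin4 had no WT E14.5 peak within 1000 bases, and 67.7 and 57.4 CPM in the KO and WT E18.5. Pdk4 had 53.5 CPM in the KO, 15.0 CPM in WT E14.5 and 42.7 CPM in WT E18.5 in 1 peak of like length in each (882, 836 and 867 bases), 3.56-fold above WT E14.5 (2.7 to 4.73).

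At Gja5 the start-site level was 56.4 CPM in the KO over 5308 bases, 215 CPM in WT E14.5 over 8919 bases and 66.8 CPM in WT E18.5 over 7281 bases, or 10.6, 24.1 and 9.18 CPM per kilobase. Ptprt had 2.28, 17.9 and 7.37 CPM, 7.87-fold lower (3.58 to 20.9), in 1 peak of 712, 790 and 824 bases. P2rx6, whose window held an E-box 5 bases before the start site, a MEF2 core and a pair of TEAD cores, had 32.4, 27.8 and 49.7 CPM, a ratio to WT E14.5 of 1.17 with an interval of 0.89 to 1.52. Its start site was thus open in the KO at a level not distinguished from WT E14.5 at this depth, as was its RNA. No motif match was found in the Plin4, Pdk4 and Gja5 windows, which says only that these letters do not occur there, and a match is not a binding site.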

How the data were processed

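Hindlimb muscle nuclei of 5 single-nucleus multiome libraries were analysed from the deposited count matrices, in which the authors give raw counts: UMIs per gene and transposase cut sites per peak. Per the submitters' processing notes the matrices come from Cell Ranger ARC 2.0.0 on mm10, and per the study's methods reads within introns were included. Nuclei with 400 to 25000 UMIs, under 10% mitochondrial UMIs and under 70000 peak counts were kept, which removed 146 KO, 6 WT E14.5 and 67 WT E18.5 myonuclei over the UMI limit. The study states more KO nuclei after filtering than the KO matrix used here has barcodes (3621). Doublets were not called.

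UMIs were summed over the myonuclei of a library and scaled to CPM. Sums have exact Poisson intervals, ratios conditional binomial intervals and shares Clopper-Pearson intervals (all 95%), which cover counting error only. PCR copies are removed from UMIs but not shown to be removed from peak counts, of which 83.8% in the KO were even, so ATAC intervals were set on counts divided by 2 cut sites per fragment. A gene counted as higher or lower at 2-fold or more, with at least 50 UMIs in the 2 sums together. Sums of 0 were set to 3 UMIs in all log2 ratios, and so in the 2-fold calls, the classes, the ranks and the list medians. Where a symbol had several entries, the one with most UMIs was used. For shares of nuclei with a UMI each nucleus was thinned to 2000 UMIs.

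Genes were named by rule: Cacna1s, members of the study's lists, up to 8 genes per class and 10 per end of the ratio with at least 200 UMIs and a higher level in myonuclei than in other nuclei, and members of 39 fixed lists and 18 isoform pairs. The members and lists were chosen with earlier results of these data known. The scripts were tested on simulated data. Computation used scipy 1.17.1, matplotlib 3.10.9, pandas 2.3.3 and numpy 2.4.6 under Python 3.11.15. Alternatives were other filters on nuclei and genes, other limits for a myonucleus, other scalings, thinning and leaving out nuclei with markers of other cells. The exons removed by the KO allele are not given in the sources used here. The P5 and adult libraries entered only the count of nuclei, and no column of a comparison by the authors was used. Some genes that the rule names are not reported here.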

Additional observations from a re-analysis of the deposited data

How the results depend on the processing

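No paired analysis was possible because each group is 1 library. The count of 1754 genes at least 2-fold higher in the KO than in WT E14.5 was 829 with nuclei thinned to 2000 UMIs (8713 genes counted), 3219 with at least 10 UMIs per gene (17222 genes), 447 with at least 500 UMIs (5686 genes) and 750 in Myh3-dominant myonuclei. The count of 1039 lower genes was 1759 with at least 10 UMIs, 419 with at least 500 UMIs and 627 in Myh8-dominant myonuclei. The smaller counts come with fewer genes or UMIs counted. The median log2 ratio of the mature fast genes, 3.11, was 1.65 after thinning, 0.36 in Myh3-dominant and 1.24 in Myh8-dominant myonuclei. The median of the developmental genes, 0.21, was 0.0362 with no filter on nuclei, 0.0748 with at least 500 UMIs, 0.49 in Myh3-dominant and -0.15 in Myh8-dominant myonuclei. Of these, the split by myosin was chosen after seeing the data, and the cause of the differences was not tested. Of 174 named and counted genes that were 2-fold different, 162 to 173 remained so under each of 9 alternatives other than the split by myosin, and under these no 2-fold gene changed sign. In the split some did: Fgf14, 9.5-fold lower in the sums, had a log2 ratio of 3.28 in Myh8-dominant and Ppargc1a, higher in the sums, one of -1.44 in Myh3-dominant myonuclei. Of 6 further list medians of 2-fold or more, 5 were below it in Myh3-dominant and 1 in Myh8-dominant myonuclei. After thinning to 2000 UMIs 3 were below it, and with the limit for a myonucleus at 3% 2 were. Leaving out nuclei with an adipocyte marker UMI put 2 below it. Scaling to the median ratio, at least 500 UMIs per gene, and leaving out nuclei with other markers each put 1 below it. The ratio of Mt1, whose log2 value is 7.29, was 3.57 with the limit for a myonucleus at 3%, where its WT E14.5 sum was 0 UMIs in place of 1. With 1 library per group, no alternative measures the spread between animals or pools.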

Other observations

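Most genes of growth control and imprinting, not described above, were within 2-fold of WT E14.5 in KO myonuclei. Igf2, the fetal insulin-like growth factor, had 519 CPM in KO myonuclei, 222 CPM in WT E14.5 myonuclei and 595 CPM in WT E18.5 myonuclei, and H19, the imprinted RNA beside it, 275, 79.7 and 303 CPM. Of 13 imprinted genes, 3 were at least 2-fold higher and none lower, against 13.6% and 8.04% of all genes counted. Of 12 genes of growth signalling, 2 were higher and 2 lower. These counts are small, and no difference from genes at large is read from them. Mstn, the growth inhibitor myostatin, and Fst, its antagonist follistatin, were lower than in WT E14.5, with 23.7, 68 and 20.4 CPM and with 20.5, 58.5 and 13.1 CPM. Igfbp5, an insulin-like growth factor binding protein, had 93, 24.1 and 51.8 CPM.

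Hormone, clock and immediate early genes had more higher than lower members, where all genes counted had 13.6% higher and 8.04% lower. Of 8 counted thyroid and steroid hormone genes, 5 were higher and none lower, among them the thyroid receptor Thra with 93.5, 32.9 and 119.9 CPM. Of 13 counted clock genes 6 were higher and none lower, with Per1 at 34, 8.73 and 27.6 CPM and Arntl at 32.7, 25.9 and 44.3 CPM. Of 10 counted immediate early genes 7 were higher and none lower. Egr1 had 44.3, 11.4 and 17.2 CPM and Junb 6.95, 2.36 and 3.35 CPM, while Fos had 4.57, 2.26 and 8.15 CPM. No source used here gives the time of day of the dissections.

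Among calcineurin, NFAT and CaMK genes, which carry calcium signals to the nucleus, 2 of 15 were higher and 1 lower. This is near the shares of all genes counted, 13.6% and 8.04%. Rcan2 had 44.2 CPM in KO myonuclei, 5.24 CPM in WT E14.5 myonuclei and 30.3 CPM in WT E18.5 myonuclei, Rcan1, a target of calcineurin, 19.5, 18.6 and 30.1 CPM, and Camk4 4.02, 14.1 and 10.5 CPM. Of 12 counted fusion genes 3 were higher and 1 lower, and nothing is read from counts this small.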
